A study of Mus musculus with 7 samples.

Results

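Olfactory receptor (Olfr) genes encode the G protein-coupled receptors with which sensory neurons of the nose detect odorants. They lie in tandem clusters, and a mature olfactory neuron is known to express 1 receptor from 1 allele while the other receptor genes are packed in heterochromatin. Outside the nose most of them are silent, so they serve as a view of closed chromatin in another tissue. Here the 132 protein-coding genes on chromosome 9 whose GENCODE vM21 symbol begins with Olfr were followed, of 21951 protein-coding genes in all and 1210 on that chromosome. The rule used name and position and no measured value.

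Accessibility was read from ATAC-Seq, in which the Tn5 transposase cuts and tags open DNA. Alpha, beta, and delta cells, which secrete glucagon, insulin, and somatostatin, were sorted from islets of healthy mice, and 2 alpha, 3 beta, and 2 delta libraries were analysed. All mice carried mIns1-H2b-mCherry, which marks beta cells through an Ins1 promoter, and Rosa-LSL-YFP, switched on in alpha cells by Gcg-Cre or in delta cells by Sst-Cre. Mice were pooled by sex within each cross. The study's methods say that the cell types came from the same animals, but not which libraries share a pool. The 7 libraries may thus not be independent, and SDs and p-values below take them as if they were. Their age and background strain are not given in the sources used here. A peak is an interval in the list called from 1 library, and a TSS peak is one that overlaps the 1 kb on either side of the annotated 5′ end of a gene.

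The 132 genes fell into 2 clusters and none stood alone. Cluster 1, chr9:18751507-20336094 (mm10), held 37 genes over 1.58 Mb, and cluster 2, chr9:37708964-40190134, held 95 genes over 2.48 Mb. Together they covered 3.34% of the chromosome outside its first 3 Mb, which hold no sequence. On the plus strand lay 88 of the genes and on the minus strand 44, and 118 had more than 1 exon. The annotated start lay in an untranslated region for 124 of them, and 3 symbols end in ps1, a mark of a pseudogene in spite of the protein-coding class. Members stood a median of 19760 bp from the nearest other member's TSS and never under 4236 bp, so no TSS window of 1 kb was shared.

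Sequence upstream of a few genes is shown first, since it differs between receptor genes and an active neighbour. These examples were chosen with their peaks known. Below are the 250 bases before the annotated start, 5′ to 3′ on the gene's strand and read from the GRCm38.p6 genome, with each CpG in capitals. Olfr883 (chr9:38025558-38025807, plus strand) and Olfr948 (chr9:39326046-39326295, minus strand) are receptor genes that had one of the few strong TSS peaks. Olfr883 is annotated with 1 exon that does not start in an untranslated region, so its stretch may not be its promoter. Zfp317 (chr9:19621852-19622101, plus strand), a zinc finger gene inside cluster 1, had a TSS peak in all 7 libraries.
Olfr883: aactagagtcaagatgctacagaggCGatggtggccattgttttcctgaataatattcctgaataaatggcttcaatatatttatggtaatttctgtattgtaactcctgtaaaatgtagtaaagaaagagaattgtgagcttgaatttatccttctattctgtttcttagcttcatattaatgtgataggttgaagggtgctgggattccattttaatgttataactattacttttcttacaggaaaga
Olfr948: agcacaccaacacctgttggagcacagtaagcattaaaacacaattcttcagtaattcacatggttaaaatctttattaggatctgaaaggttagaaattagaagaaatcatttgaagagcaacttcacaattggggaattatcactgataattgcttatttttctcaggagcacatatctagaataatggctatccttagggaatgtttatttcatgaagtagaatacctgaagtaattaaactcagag
Zfp317: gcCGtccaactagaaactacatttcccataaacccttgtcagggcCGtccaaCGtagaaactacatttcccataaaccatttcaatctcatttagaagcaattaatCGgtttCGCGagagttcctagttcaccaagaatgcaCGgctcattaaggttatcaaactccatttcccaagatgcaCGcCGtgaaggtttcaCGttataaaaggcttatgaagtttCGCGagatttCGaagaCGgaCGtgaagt

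These stretches hold 1, 0, and 15 CpG dinucleotides. The same contrast held over the whole group. In the 300 bases from 250 before to 50 after the annotated start, the 132 members had a median GC content of 36% and a median CpG observed over expected of 0.0979, and 48 of them (36.4%) held no CpG at all. The 1078 other protein-coding genes of the chromosome had medians of 56.7% and 0.608, and 1.67% of them held no CpG. A ratio under 0.4 was found for 130 of 132 members and for 348 of the other genes. The homeodomain core TAATTA, searched on both strands, occurred in 26 members (19.7%) against 3.34% of the other genes. The Ebf core CCCNNGGG occurred in 18 members (13.6%) against 14.9%. Both are core letters of factors that act on receptor promoters in the nose, and a match describes the sequence and not a bound site. How often such letters occur also depends on GC content, which differs between members and other genes. No expectation from base composition was computed, so these shares show neither an excess nor the lack of one.

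The RefSeq promoter table (GRCm38.p6) held 109 of the 132 members by symbol. Its promoters had a median CpG ratio of 0.107, and TAATTA was present in 25.7% of them against 5.29% of all 32851 promoters of the table. CCCNNGGG was present in 1.83% against 13.7%. Median GC content was 34% for the members and 52.7% for all promoters of the table. These shares, too, were not set against base composition. For 54 of the 109 (49.5%) the RefSeq start lay more than 1 kb from the GENCODE start, and for 68 the RefSeq start was the first base of a start codon. The place of the true start is therefore uncertain for many receptor genes, and peaks were counted at both.

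Few receptor genes had an accessible start in 6 of the 7 libraries. TSS peaks were found at 6 of 132 members in alpha 1 (4.55%, 95% Wilson interval 2.10 to 9.56%), at 0 in alpha 2 (interval up to 2.83%), at 9 in beta 2, at 3 in beta 3, at 9 in delta 1, and at 3 in delta 2. Beta 1 stood apart with 52 (39.4%, interval 31.5 to 47.9%). These intervals take the genes of 1 library as independent draws and do not measure the spread between libraries. Over the other protein-coding genes of chromosome 9 the share was 68.4, 71.5, 72.1, 51.8, 62.3, 67.2, and 61.6% in alpha 1, alpha 2, beta 1, beta 2, beta 3, delta 1, and delta 2. Members were below the other genes in every library, beta 1 included.

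The difference between members and other genes averaged -56.1 ± 13.0 percentage points (SD, n = 7 libraries), with members lower in 7 of 7. It ran from -71.5 in alpha 2 to -32.7 in beta 1. A two-sided exact sign-flip permutation test gave p = 0.0156, the smallest that 7 libraries allow, and 0.0781 after Benjamini-Hochberg adjustment over the 5 tests of this kind. The adjusted value did not pass 0.05. With peaks of -log10 q of at least 2 the difference was -53.0 percentage points, again lower in 7 of 7, and the adjusted p of the same exact test was 0.0260. Without beta 1 it was -55.0, lower in 6 of 6, with an adjusted p of 0.0521 in the exact test.

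**Figure D1:**
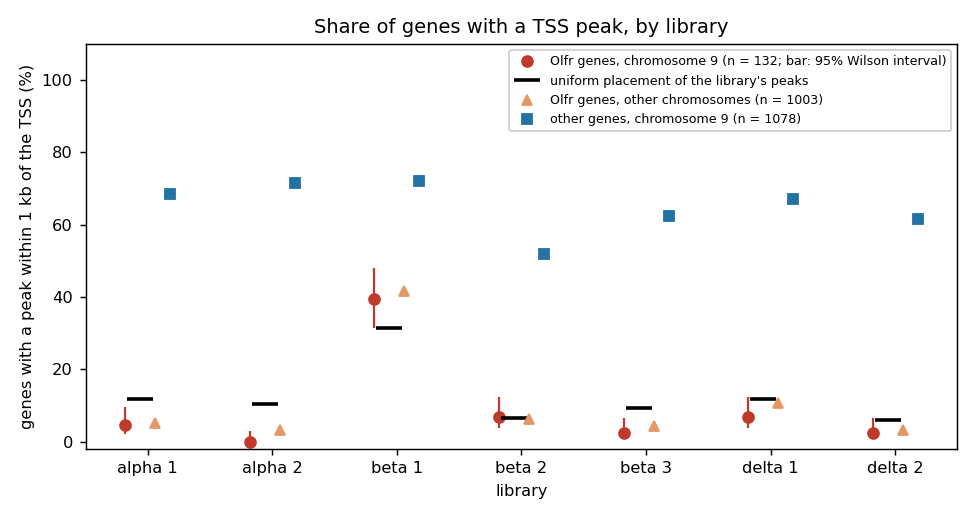
Share of genes with a peak within 1 kb of the TSS (y axis, percent) in each of the 7 libraries (x axis), for the 132 chromosome 9 Olfr genes with 95% Wilson intervals, Olfr genes of other chromosomes, other chromosome 9 genes, and uniform placement of the library's own peaks. Olfr genes sat between 0 and 6.82% except in beta 1, where they reached 39.4%, while the other genes sat between 51.8 and 72.1%.

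The number of peaks in a list sets how many windows are hit by placement alone. If the chromosome 9 peaks of each list lay uniformly outside the first 3 Mb, 11.8, 10.5, 31.4, 6.51, 9.30, 11.8, and 6.07% of the members would carry a TSS peak, in the order alpha 1, alpha 2, beta 1, beta 2, beta 3, delta 1, and delta 2. The observed count was 0.386, 0, 1.25, 1.05, 0.244, 0.577, and 0.375 times that expectation. Members were thus below uniform placement in both alpha, both delta, and beta 3, and at or above it in beta 1 and beta 2. The mean difference was -3.61 percentage points, lower in 5 of 7 libraries, and was not past the threshold (exact sign-flip permutation test, p = 0.1875, adjusted 0.1875).

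Beta 1 differed from the other lists as a whole. It held 20688 chromosome 9 peaks against 3289 to 6692 in the others, and 5.45% of them reached a -log10 q of 2 against 31.0 to 57.3%. The strongest peak at each of its 52 members had a median -log10 q of 0.0774 and a median fold enrichment of 1.80 over the local background, and 46 of these 52 were no wider than 200 bp. None reached a -log10 q of 2. The study's quality table lists the fewest uniquely mapped reads for beta 1 and the next fewest for beta 2, if its numbering follows the titles. Delta 2 comes next in that table, and its list had the fewest chromosome 9 peaks (3289) and the highest share at a -log10 q of 2 (57.3%). The part of sequencing depth in these values was not tested, since only called intervals were read.

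Restricting every list to peaks of -log10 q of at least 2 brought the libraries together. Members with such a TSS peak then numbered 2, 0, 0, 2, 0, 1, and 2 in alpha 1, alpha 2, beta 1, beta 2, beta 3, delta 1, and delta 2, where uniform placement gives 6.74, 6.26, 2.86, 3.27, 4.61, 5.33, and 4.80. Every library was below its expectation at these GENCODE starts. The mean difference from the expectation was -2.91 percentage points (two-sided exact sign-flip permutation test, adjusted p = 0.0260, lower in 7 of 7). Without beta 1 it was -3.03, lower in 6 of 6, and the adjusted p of 0.0521 no longer passed (exact, smallest unadjusted p 0.03125).

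Member peaks were also weaker. Among genes with a TSS peak, the peak was placed by its -log10 p as a percentile of its own list. Peaks of equal -log10 p shared their mean rank, and ties could be large. In beta 1 a -log10 p of 2.26 stood at 48.1 and one of 2.18 at 7.93, where the lowest of the list was 2.01. A middle percentile can thus belong to a weak peak. The median over members was 42.4 in alpha 1, 48.1 in beta 1, 29.3 in beta 2, 45.3 in beta 3, 37.8 in delta 1, and 48.4 in delta 2, and over the other genes it lay between 83.2 and 96.1. Alpha 2 had no member peak and gave no value. The difference averaged -47.4 percentile points, lower in 6 of 6 libraries (exact sign-flip permutation test, p = 0.03125, the smallest for 6 libraries, adjusted 0.0781). Among strong peaks alone the difference was -23.0 over the 4 libraries that gave a value.

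Peaks near members did not concentrate at the TSS. Peak midpoints per gene per kb within 1 kb of the TSS, divided by those from 5 to 10 kb away, gave 0.732, 0, 0.975, 1.08, 0.357, 0.702, and 0.625 for members in alpha 1, alpha 2, beta 1, beta 2, beta 3, delta 1, and delta 2. For the other genes the ratio was 2.95 in beta 1 and between 6.19 and 8.98 in the other libraries. The receptor profile had no maximum at the TSS in any library, with no midpoint at all in alpha 2.

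**Figure D2:**
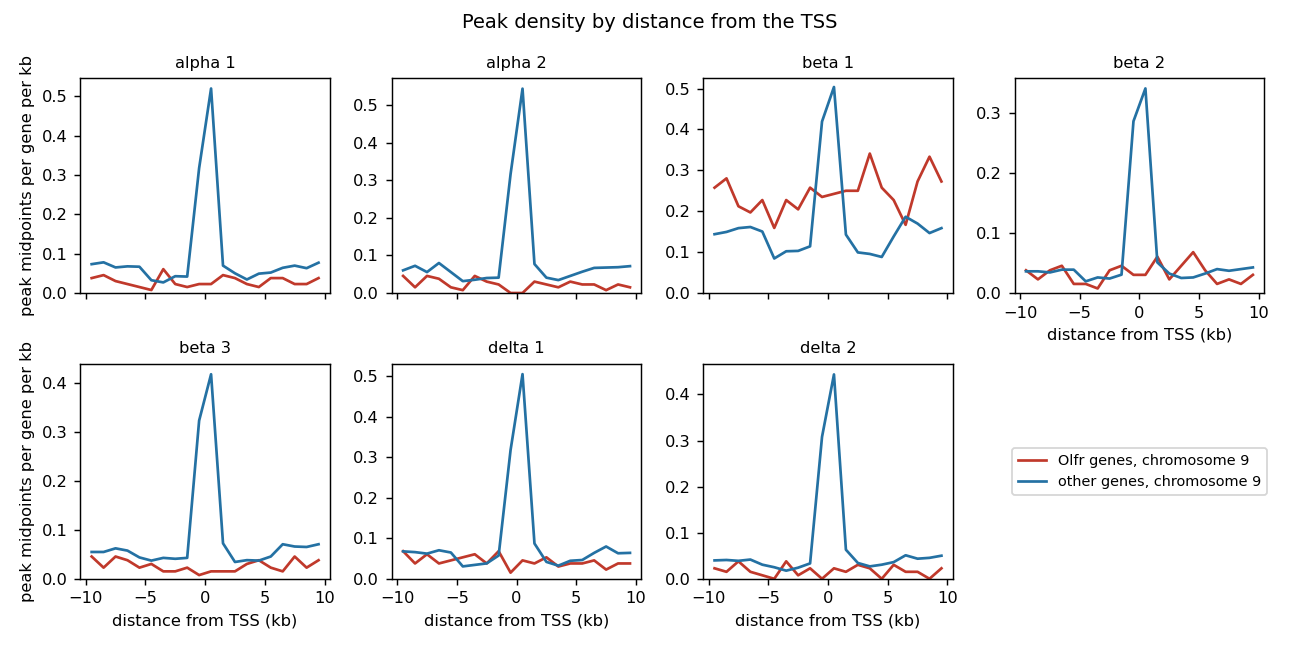
Peak midpoints per gene per kb (y axis, scaled for each library) by distance from the TSS (x axis, kb, negative upstream) for chromosome 9 Olfr genes and other genes, 1 panel per library. Other genes peaked at the TSS in all 7 panels, and Olfr genes had no such peak, with centre to flank ratios between 0 and 1.08.

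The members were compared with the 1003 Olfr genes on other chromosomes, of which 5.08, 3.29, 41.7, 6.18, 4.29, 10.8, and 3.19% had a TSS peak in the same order of libraries. The difference averaged -1.77 percentage points, with chromosome 9 lower in 6 of 7 libraries. This did not pass the threshold after adjustment (exact sign-flip permutation test, p = 0.0469, adjusted 0.0781), and with a window of 3 kb the sign turned, to 0.254 percentage points.

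CpG content was set beside the peaks, since both differ between receptor genes and the rest. Of the 348 other genes of chromosome 9 with a CpG ratio under 0.4 at the start, between 17.5% in beta 2 and 44.0% in beta 1 had a TSS peak. Of the 130 members under that ratio it was 4.62, 0, 38.5, 6.92, 2.31, 6.15, and 2.31% in alpha 1, alpha 2, beta 1, beta 2, beta 3, delta 1, and delta 2. Members were below CpG-poor genes in every library, by 5.50 percentage points in beta 1 and by 10.6 to 35.3 in the others. CpG-rich genes were far higher, between 68.1 and 88.8%.

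Whether 50-base reads can be placed at members was checked from the genome. Of the 50-base words in a member's TSS window, a median of 98.9% occurred at 1 place on the 21 assembled chromosomes (lowest 60.6%), and for other genes the median was 100%. At least 90% of words were unique for 114 members, and TSS peaks were called at 5.26, 0, 39.5, 7.02, 0.877, 7.02, and 2.63% of those 114 in the usual order. Leaving out the 18 other members thus removed 7 of the 52 peaks of beta 1 and 2 of the 3 of beta 3.

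Counted by gene, 66 of 132 members had no TSS peak in any library, 52 had one in 1 library, 12 in 2, and 2 in 3. Of the 66 with a peak, 40 had it in beta 1 alone, and 26 had one in any of the other 6 libraries. Of all 1210 protein-coding genes of chromosome 9, 82.4% had a TSS peak in at least 1 library. No member had one in all 7 libraries, against 39.7% of chromosome 9 genes. A TSS peak of -log10 q of at least 2 in at least 1 library was found for 6 members (4.55%), against 64.2%.

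**Figure D3:**
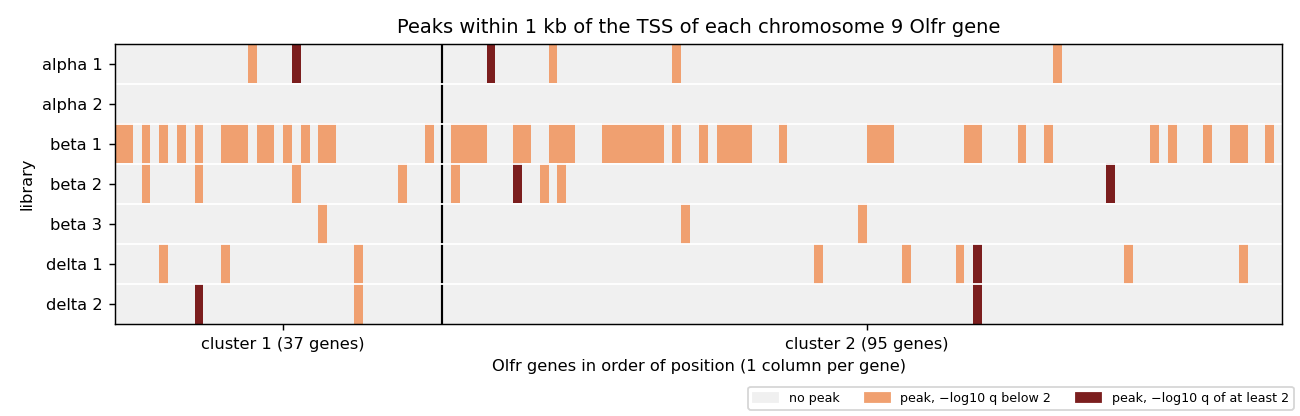
Map of TSS peaks for the 132 Olfr genes in order of position (columns, with a line between the clusters) in 7 libraries (rows). Orange marks a peak with -log10 q below 2 and dark red a peak of at least 2; beta 1 held 52 orange cells and no dark red one, and the 7 dark red cells belonged to 6 genes.

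The 7 strong member peaks were spread over 4 libraries. Alpha 1 had Olfr855 and Olfr145 at a -log10 q of 2.16 each. Beta 2 had Olfr883 and Olfr150 at 3.04 each, and these 4 genes had a strong peak in that library only. Delta 2 had Olfr839-ps1 at 3.21, the highest -log10 q at any member's TSS, with a fold enrichment of 4.20. By fold (4.24 each) and by percentile in the list (76.9 against 55.8), Olfr883 and Olfr150 in beta 2 stood higher.

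Olfr948 (ENSMUSG00000057349.2, chr9:39315712-39326045, minus strand) was the only member with a strong peak at its GENCODE start in more than 1 library. This depends on the annotation, since the RefSeq start of Olfr948 lies 6433 bp away. Its -log10 q was 2.77 in delta 1 and 2.64 in delta 2, with fold enrichments of 4.17 and 3.97, and beta 1 had 2 peaks of -log10 q 0.0774 there. No peak was listed within 1 kb of its start in alpha 1, alpha 2, beta 2, or beta 3. The peak midpoints lay 263 and 341 bp downstream of the annotated start, so the delta peaks reached from the first exon, which is untranslated, into the first intron. The intronic part, chr9:39325545-39325798, is shown on the minus strand, with TAATTA among its letters and no CpG.
Olfr948 first intron: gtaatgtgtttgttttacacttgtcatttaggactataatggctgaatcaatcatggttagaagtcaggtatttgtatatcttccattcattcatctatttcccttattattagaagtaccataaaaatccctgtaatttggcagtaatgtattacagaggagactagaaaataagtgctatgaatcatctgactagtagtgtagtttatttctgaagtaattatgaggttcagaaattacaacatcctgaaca

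Olfr839-ps1 (ENSMUSG00000110519.2, chr9:19168407-19177312) was the other member with TSS peaks in 3 libraries, at -log10 q of 0.0774 in beta 1, 1.82 in beta 2, and 3.21 in delta 2. Midpoints were at -481.5 bp from the start, upstream, in beta 2 and at 889.5 bp, downstream, in delta 2, so these peaks did not overlap. Beta 1 had 3 weak peaks in the window, 1 of which overlapped the delta 2 peak. Olfr866 had peaks in both delta libraries, at -log10 q of 0.951 and 1.93, 641.5 and 368.5 bp downstream, and in no other library. The remaining members with TSS peaks in 2 libraries were Olfr883, Olfr859, Olfr901, Olfr845, Olfr982, Olfr889, Olfr855, Olfr888, Olfr834, Olfr830, and Olfr874. In each of them beta 1 or beta 2 was 1 of the 2 libraries.

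Recurrence within a cell type was rare. In alpha cells 0 members had a TSS peak in 2 or more replicates, in beta cells 6, and in delta cells 2, against 57.9, 54.9, and 53% of all chromosome 9 genes. The 6 beta genes were Olfr839-ps1, Olfr883, Olfr859, Olfr889, Olfr830, and Olfr874, and each rests on beta 1; without beta 1 the count was 0. The 2 delta genes were Olfr866 and Olfr948. Peaks of 2 replicates that overlapped each other, counted after the data were seen, were found at 0 alpha members, 0 beta members, and 1 delta member, against 56.1, 51.1, and 52.1% of chromosome 9 genes. That member was Olfr948, and at the other 7 the replicates had peaks at different places in the window.

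Members selective for 1 cell type were those whose TSS carried peaks in 2 or more replicates of 1 cell type and none in the cell type compared with it. No member was called for alpha against beta or alpha against delta, where 2.31 and 1.98% of chromosome 9 genes were. Beta against alpha called 6 members (4.55%), against 2.31% of chromosome 9 genes, and beta against delta 5 (3.79%), against 3.39%. Delta against alpha called Olfr866 and Olfr948, with 0.248% of chromosome 9 genes called, and delta against beta called Olfr866, with 0.992% called. The beta counts depend on beta 1, as above. By the deposited names, the alpha and the delta lists carry different lane codes, so cell type and lane cannot be told apart between them.

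No difference between cell types in the share of members with a TSS peak was past the threshold. The mean was 2.27 ± 3.21% in alpha (SD, n = 2), 16.2 ± 20.2% in beta (n = 3), and 4.55 ± 3.21% in delta (n = 2). An exact permutation test over the 210 assignments of the libraries gave p = 0.733. Without beta 1 the beta mean was 4.55%. Relative to uniform placement the means were 0.193, 0.848, and 0.476 for alpha, beta, and delta (exact permutation test, p = 0.286, adjusted 0.429). For the share, the SD within beta cells was larger than any gap between cell type means.

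Across the whole clusters, the receptor genes sat in chromatin with fewer strong peaks than the rest of the chromosome. Peaks of -log10 q no lower than 2 came to 8.61, 6.15, 3.69, 7.62, 8.12, 7.87, and 7.13 per Mb in the clusters for alpha 1, alpha 2, beta 1, beta 2, beta 3, delta 1, and delta 2. These were 0.381, 0.299, 0.390, 0.707, 0.528, 0.453, and 0.451 times the density of the rest of chromosome 9. The mean log2 ratio was -1.17, below 0 in 7 of 7 libraries (two-sided exact sign-flip permutation test, adjusted p = 0.0260), and -1.14 without beta 1 (adjusted p = 0.0521, exact).

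With all peaks the picture was mixed. The ratio was 0.564, 0.483, 1.49, 1.15, 0.635, 0.826, and 0.638, above 1 in beta 1 and beta 2 and below 1 in the other 5. The mean log2 ratio of -0.38 ± 0.59 (SD, n = 7) was not past the threshold (exact sign-flip permutation test, p = 0.125, adjusted 0.156). Peaks below a -log10 q of 2 made the difference between the 2 counts, with ratios of 1.55 in beta 1, 1.41 in beta 2, and 0.617 to 0.997 in the other libraries. Cell types did not differ past the threshold in the ratio with all peaks (0.524 alpha, 1.09 beta, 0.732 delta; exact permutation test, p = 0.162, adjusted 0.429).

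**Figure D4:**
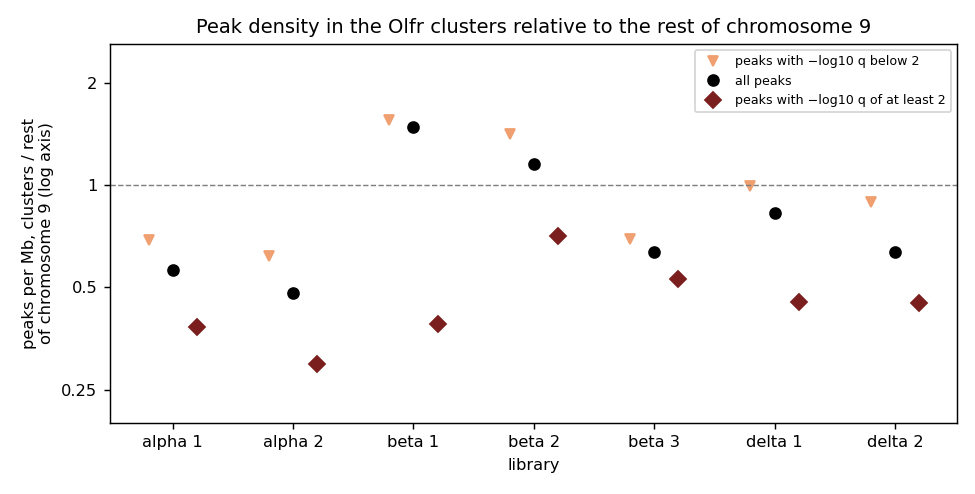
Peaks per Mb in the 2 Olfr clusters divided by those in the rest of chromosome 9 (y axis, log scale, dashed line at 1) by library (x axis), for all peaks and for those below and at or above a -log10 q of 2. Strong peaks were below 1 in 7 of 7 libraries (0.299 to 0.707), and weak peaks were above 1 in beta 1 and beta 2.

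Both clusters took part. At a -log10 q of at least 2, cluster 1 had 0.109 to 0.585 times and cluster 2 had 0.383 to 0.784 times the density of the rest of the chromosome. Gene bodies of members filled 20.6% of the clusters. Strong peaks were less dense in them than between them in 6 of 7 libraries, for example 2.39 against 7.12 per Mb in alpha 2 and 3.59 against 9.29 in beta 3, and denser in beta 2 (9.57 against 7.12), on 2 to 8 peaks in bodies per library and with no test. With all peaks the ratio ran from 0.4998 in alpha 2 to 1.202 in beta 2. The clusters hold few other genes, so they were also compared with gene-poor ground. Over bases more than 50 kb from the TSS of any gene that is no Olfr gene (3.66 Mb of the clusters and 61.8 Mb of the rest), the ratio for strong peaks was 0.323 to 0.748 in 6 libraries and 1.01 in beta 2. This comparison was added after the data were seen, and its mean log2 ratio was -0.83 with strong peaks (exact sign-flip permutation test, p = 0.03125, adjusted 0.0625 over the 2 peak sets) and -0.24 with all peaks (p = 0.266, exact). Neither passed 0.05 after adjustment.

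Genes other than receptors inside the clusters had open starts. Zfp317 and Vwa5a, a gene with a von Willebrand factor A domain, had TSS peaks in 7 of 7 libraries, and AW551984 in 5 of 7. At Zfp317 the -log10 q was 73.0, 71.2, 57.7, 63.0, 77.3, 125, and 98.1 in alpha 1, alpha 2, beta 1, beta 2, beta 3, delta 1, and delta 2. Ranked by -log10 p, it stood at or above the percentile of 99.5 of every list. Tmem225, the remaining one, had a TSS peak in none.

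Strong peaks were merged across libraries to see what in the clusters is open. They formed 103 regions, or 25.3 per Mb against 43.6 per Mb in the rest of chromosome 9, and are numbered here along the chromosome. Of these, 36 (35.0%) were found in at least 2 libraries, against 46.5% of regions in the rest. Of the 36, 1 lay within 1 kb of a member's GENCODE TSS, that of Olfr948, and 5 lay at the TSS of other genes. The other 30 lay at neither, with a median of 9910 bp from any of the 36 to the nearest member's TSS. RefSeq starts gave other genes. Region 51 (chr9:38464425-38464747, strong in alpha 2 and delta 1) lay within 1 kb of the RefSeq start of Olfr904, 38464043. Region 20 (chr9:19495567-19495786, strong in beta 1 and beta 2) lay within 1 kb of that of Olfr851, 19496750. The RefSeq start of Olfr948 lies 6433 bp from its GENCODE start. Most of the 36 thus lay away from the annotated receptor starts. Windows of 1 kb on either side of those starts fill only part of the clusters, and the share expected from that was not computed. The count therefore shows neither a lack nor an excess of strong regions there.

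In all 7 libraries 5 regions were strong. One was the Zfp317 promoter, and the other 4 (regions 44, 88, 98, and 100) had no protein-coding TSS within 1 kb and all lay in cluster 2. Region 88 (chr9:39633888-39634488, 10897 bp from the TSS of Olfr961) had a -log10 q of 22.5, 42.3, 4.10, 7.07, 7.89, 35.7, and 15.2 in alpha 1, alpha 2, beta 1, beta 2, beta 3, delta 1, and delta 2. Region 44 (chr9:37932453-37933053, 14913 bp from Olfr878) had its highest value, 12.8, in beta 3 and 4.19 to 8.98 elsewhere. A -log10 q also depends on how many reads a library holds, so values of different libraries are given side by side and were not tested.

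Regions 98 and 100 turned out to be copies of 1 sequence. Region 98 (chr9:39877294-39878123, 11286.5 bp from Olfr972) and region 100 (chr9:39928263-39928969, 8885 bp from Olfr974) lie in an inverted repeat of 1710 bp without a mismatch, chr9:39877266-39878975 and chr9:39927412-39929121, with Olfr229 between the copies. None of the 50-base words of either region occurs at 1 place only. Reads from the copies could not be told apart, so these 2 regions count as 1 observation. Their -log10 q ran from 4.35 to 24.9 and from 6.51 to 25.8.

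The middle 300 bases of region 88 (chr9:39634039-39634338) and of region 98 (chr9:39877559-39877858) are shown on the plus strand. No annotated gene start lies in either, and both were open in every library. Region 44 meets the same terms and is not shown. Its middle 300 bases held 11 CpG and not the pair of motifs marked below, where those of regions 88 and 98 held 0 and 1 CpG. Capitals mark an inverted pair of short motifs, GTTGC and GCAAC with 3 bases of any kind between them, which reads the same on both strands and was picked out after the sequences were read.
region 88: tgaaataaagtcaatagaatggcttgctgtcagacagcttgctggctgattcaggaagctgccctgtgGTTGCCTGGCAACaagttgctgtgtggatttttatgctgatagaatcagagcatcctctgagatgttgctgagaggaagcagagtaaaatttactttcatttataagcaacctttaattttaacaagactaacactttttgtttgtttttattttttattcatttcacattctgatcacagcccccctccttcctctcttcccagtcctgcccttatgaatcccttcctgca
region 98: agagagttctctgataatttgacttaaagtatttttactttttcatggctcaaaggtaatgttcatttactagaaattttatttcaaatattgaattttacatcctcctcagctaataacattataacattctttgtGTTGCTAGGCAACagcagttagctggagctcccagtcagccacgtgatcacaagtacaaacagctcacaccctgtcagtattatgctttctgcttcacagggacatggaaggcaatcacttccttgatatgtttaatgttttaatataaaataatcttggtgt

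This pair of motifs was found in 5 of the 103 strong regions of the clusters, all of them among the 36 found in at least 2 libraries, and in 3 of the 5 found in all 7. The pair was picked from the sequences of regions among those 3. These counts thus follow from that choice, and the shares below describe the pair and test no enrichment. In the rest of chromosome 9 the pair was found in 11 of 2385 regions of at least 2 libraries (0.461%) and in 1 of 504 of all 7 (0.198%). Over the whole chromosome outside its first 3 Mb, clusters included, it was found in 106 of 302858 consecutive stretches of 400 bases (0.0350%). The 5 regions were 88, 89, 91, 98, and 100, within 295 kb of each other. They were not independent: 98 and 100 are copies, and 88, 89, and 91 resemble each other. The pair with 20 bases on either side is shown for those 3 (chr9:39634087-39634139, chr9:39654943-39654995, and chr9:39679474-39679526, plus strand), capitals as before.
region 88: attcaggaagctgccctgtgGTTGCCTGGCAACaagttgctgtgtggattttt
region 89: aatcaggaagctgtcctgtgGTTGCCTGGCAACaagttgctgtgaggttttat
region 91: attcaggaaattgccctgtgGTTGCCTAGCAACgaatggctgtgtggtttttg

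Over these 53 bases regions 88 and 89 were identical at 48, 88 and 91 at 45, and 89 and 91 at 42. Regions 89 and 91 were strong in 4 and 3 libraries. The 5 regions thus amount to 2 separate sequences, 1 of them in 3 diverged copies and the other in 2 identical ones. Letters of this form are known from the sites of RFX factors, and whether any factor binds here was not tested.

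**Figure D5:**
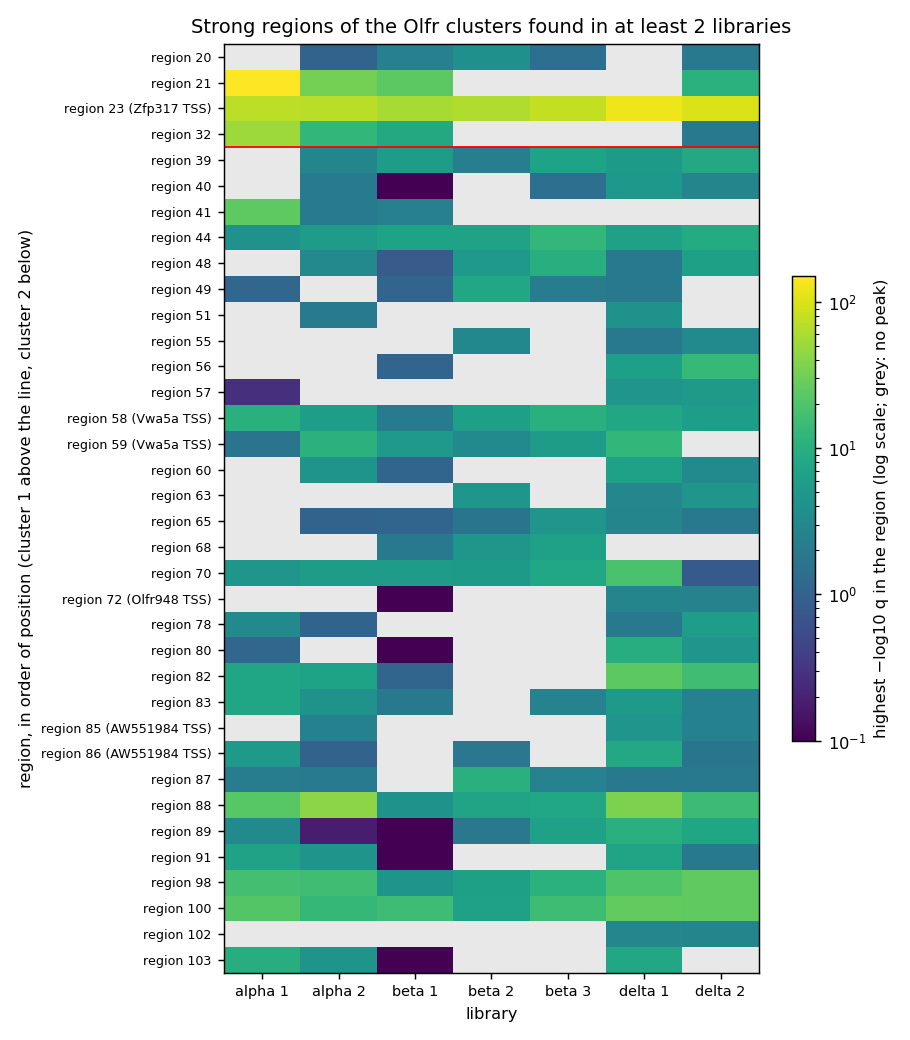
Highest -log10 q (colour, log scale, values under 0.1 drawn as 0.1, grey where no peak was listed) of the 36 strong regions of the clusters found in at least 2 libraries (rows, in order of position) in 7 libraries (columns). Regions 23, 44, 88, 98, and 100 were strong in all 7, and region 72, at Olfr948, was strong in the 2 delta libraries.

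Other regions were uneven between libraries. Region 82 (chr9:39557760-39558142, 3897 bp from Olfr958) had a -log10 q of 7.29 and 6.92 in alpha and 23.9 and 16.02 in delta cells, 1.10 in beta 1, and no peak in beta 2 or beta 3. Region 21 (chr9:19575335-19575610) had the highest value of all, 147 in alpha 1, with 32.5 in alpha 2, 23.7 in beta 1, 10.8 in delta 2, and no peak in beta 2, beta 3, or delta 1. Regions 32 and 41 reached a -log10 q of 2 in alpha 1, alpha 2, and beta 1 only, with 52.0 and 24.7 in alpha 1. In the deposited names those 3 libraries carry the same lane code, and the other 4, both delta libraries included, carry another. The study's methods name no lane, so the same code may not mean the same lane or run. In the rest of the chromosome 32 regions had exactly that pattern, 1.34% of those in at least 2 libraries, and the part of the lane in regions 21, 32, and 41 was not tested.

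Genes that serve odorant detection together with the receptors were read from a list of 26. Between 12 and 20 of them had a TSS peak in a library (median 17), where 51.8 to 72.1% of the other chromosome 9 genes did, so the count as a whole is no result about this list. In 7 of 7 libraries these were Adcy3, the adenylyl cyclase of odorant signalling, Gnb1, Stom, Ric8b, Ebf3, Lbr, Cbx5, Atf5, and Eif2ak3. Most of those are also used in other tissues, as Lbr and Cbx5 are in heterochromatin and Atf5 and Eif2ak3 in the unfolded protein response. In none was a TSS peak found for Omp, which marks mature olfactory neurons, the channel subunits Cnga4 and Cngb1, or Rtp1, which carries receptors to the membrane. Cnga2, Gng13, Ebf2, and Emx2 had one in beta 1 alone.

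Cell labels were checked at marker genes. Both alpha lists had TSS peaks at 6 of 6 alpha markers, but the delta lists had 5 and 6 and the beta lists 2 to 5. Both delta lists had peaks at 4 of 4 delta markers, both alpha lists and beta 1 at 3, and beta 2 and beta 3 at 0. Sst itself had one in both delta lists and beta 1, and its only one of -log10 q of 2 or more was in beta 1, against that label. Gcg had strong ones in both alpha lists and in delta 2. Of 8 beta markers 3 to 6 had a peak in the beta lists and 4 or 5 in the others, so this list did not set beta cells apart. Ins2 was scored at the 5′ end of a long annotated span (chr7:142678656-142743381, minus strand) and had a TSS peak in beta 3 only. The study reports open chromatin at the Ins2 TSS in beta cells, so the start scored here may be a different one. Markers of acinar, ductal, endothelial, immune, and stromal cells had 0 to 3 peaks of 10 per library, and at most 1 of -log10 q of at least 2. All 3 beta lists were deposited under names that mention a different cell type, and grouping followed the sample titles.

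Peaks were also counted at the RefSeq starts of the 109 members that have one, an alternative added after the data were seen. They numbered 8, 3, 50, 8, 6, 9, and 5 in alpha 1, alpha 2, beta 1, beta 2, beta 3, delta 1, and delta 2, where the GENCODE starts of the same genes gave 5, 0, 38, 6, 3, 7, and 2. Strong peaks, of -log10 q 2 or more, were at 0, 1, 1, 3, 0, 3, and 0 of the RefSeq starts. In beta 2 that is 2.75%, above the 2.47% of uniform placement, and in the other 6 libraries the share was below it. The count was higher at RefSeq starts in 7 of 7 libraries, by 2 to 12 genes, and this difference was not tested.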

How the data were processed

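ATAC-Seq peak lists of 7 libraries (2 alpha, 3 beta, 2 delta) were used, grouped by their titles. Per the labels and the study's methods, the authors used Trimmomatic on the single-end reads and Bowtie2 for alignment to mm10, from which mitochondrial DNA had been left out. Picard marked duplicates, reads in blacklist regions were dropped, and MACS2 was run on every library separately. The deposited columns are the interval (position), a score of 10 times the -log10 p, the fold enrichment, a ratio over local background made by the authors with MACS2, and the authors' -log10 p and -log10 q. The calling threshold is not given in the sources used here, and the lowest -log10 p was 2.01 in each list. Lists held 75860 to 518503 distinct intervals. Read depth was not analysed, so no detection limit can be given where a peak is absent, and Wilson intervals cover counting error only.

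Repeated intervals were counted once, and an overlap of 1 bp counted. Genes came from GENCODE vM21 and sequences from RefSeq (GRCm38.p6), 50-base words being matched exactly on both strands of 21 chromosomes. Clusters chained members under 500 kb apart, with at least 5 members. Uniform placement is an analytic expectation, 1 minus the exponential of minus the mean number of intervals over a window. It takes no account of the gathering of peaks at other genes' starts. Cell types were compared by exact permutation over 210 assignments (3 tests, Benjamini-Hochberg), and within-list differences by two-sided exact sign flips (5 tests). With 7 libraries the smallest sign-flip p is 0.0156. Genes were named where they had TSS peaks in the most libraries or at a -log10 q of at least 2, where they lie in the clusters, or where they are on the olfactory list. Regions, and members named within counts of 6 or fewer, were chosen after their values were seen. Members, lists, and tests were chosen with earlier results of these data known. The steps were tested on simulated lists.

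Alternatives were peaks of -log10 q of at least 2, the 50000 strongest peaks of each list, a 3 kb window, any transcript start, a chain of 100 kb, each replicate left out, and permutation within replicate number, lane, or sex. The study's methods say that the cell types came from the same animals, but not which libraries share a pool, and same-numbered libraries are not all of 1 sex, so replicate numbers were not taken as pairs. Python 3.11.15, numpy 2.4.6, pandas 2.3.3, scipy 1.17.1, numba 0.67.0, and matplotlib 3.10.9 were used.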

Additional observations from a re-analysis of the deposited data

How the results depend on the processing

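The member deficit against other chromosome 9 genes kept its sign under every alternative run, but its adjusted p of 0.0781 fell below 0.05 under 4 of them: -53.0 percentage points at a -log10 q of at least 2, -54.0 with the 50000 strongest peaks per list, -48.4 with a 3 kb window, and -56.3 with any transcript start. Against uniform placement the values that passed were -2.91 and -2.85 percentage points under the first 2 of these. The log2 density ratio of the clusters passed at -1.17 and -1.13 under the same 2. Once beta 1 was left out of the strong-peak lists these 3 results were -55.0, -3.03, and -1.14, each with an adjusted p of 0.0521, past the threshold no longer with 6 libraries. The percentile difference passed at -50.8 with 3 kb and -50.4 with any start, but shrank to -23.0 (4 libraries, adjusted 0.156) among strong peaks and -21.2 (5 libraries, adjusted 0.0781) among the 50000 strongest (all exact permutation tests). Against Olfr genes elsewhere the sign reversed with 3 kb, to 0.254 percentage points.

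Leaving out each library in turn gave -60.0 to -53.5 percentage points against other genes, -5.53 to -2.46 against uniform placement, -2.17 to -1.40 against other Olfr genes, -0.54 to -0.27 for the log2 density ratio, and -49.9 to -45.4 percentile points, with adjusted p between 0.0781 and 0.375. No cell type difference passed 0.05 under any alternative run. Its gap in share was 2.27 to 20.8 percentage points over libraries left out.

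The cell type gaps of 13.9 percentage points, 0.655, and 0.569 do not change with the replicate block, only their p. With the replicate block (permutation within replicate number) p was 0.722, 0.333, and 0.278 for the share, the ratio to uniform placement, and the density ratio, against 0.733, 0.286, and 0.162 without it. It changed no call. Within lane p was 0.944, 0.222, and 0.167, and within sex 0.611, 0.306, and 0.278 (all exact permutation tests).

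Members recurring in at least 2 replicates numbered 3 in alpha cells with 3 kb. In beta cells the 6 became 0 at a -log10 q of at least 2, 0 with the 50000 strongest peaks, 34 with 3 kb, and 14 with any start, and 0 without beta 1, 1 without beta 2, and 5 without beta 3. In delta cells the 2 became 1 at a -log10 q of at least 2, 1 with the 50000 strongest peaks, and 8 with 3 kb. The cause was not tested. Leaving out a replicate of alpha or delta cells leaves 1 list and no count.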
